A study of Mus musculus with 8 samples.

Results

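Intergenic peaks 3 to 50 kb from a transcription start site (TSS) were taken from the lists of differential ATAC-seq peaks of wild-type (WT) and *Chd4-CMko* mouse hearts at embryonic day E10.5. A peak was a member if it overlapped no transcript of GENCODE release M21, if its nearest annotated TSS lay more than 3 kb and at most 50 kb away, and if at most 50% of its bases were soft-masked as repeat in GRCm38. Of 15736 listed peaks, 3574 were members. Of these, 2936 came from the list for *Chd4-CMko* hearts, read here as peaks with higher accessibility in the knockout (gained), and 638 came from the WT list (lost).

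The 8 samples were 4 WT and 4 *Chd4-CMko* pools of E10.5 hearts, with 3 hearts per pool in the design text and 4 in the extract protocol, and 40000 viable cells per sample. The study's methods give 3 hearts per pool for E10.5, and 4 for the earlier stage of its other hearts. *Chd4-CMko* denotes a conditional knockout of *Chd4* in cardiomyocytes. In the study's crosses for staining, *Chd4* fl/fl females were mated with *Tnnt2* Cre/+ males that carried 1 floxed *Chd4* allele, so that Cre was driven by the promoter of the cardiac troponin T gene. The controls of the conditional knockout line were littermates, and whether the WT pools carried Cre or a floxed allele is not given in the sources used here. The dissociated cells were not sorted, so each pool also held endocardial, epicardial and blood cells, and a change in the number of a cell type cannot be told apart from a change of accessibility within it. Each deposited list held 1 score per peak and no value per sample. There is therefore no replicate error, no depth per sample and no p-value for any comparison of the genotypes below. The intervals given for shares of peaks (Wilson for a share, Newcombe for a difference, 95%) cover counting error over peaks only. Peaks close to each other may share a cause, and peaks are not replicates of a genotype. The peak lists hold no expression value, so the heart label could not be checked against marker genes.

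CHD4 is the ATPase of the nucleosome remodelling and deacetylase (NuRD) complex, which lowers the activity and accessibility of promoters and enhancers to which transcription factors recruit it. Intergenic accessible sites away from a TSS are often enhancers or insulators. Enhancers are short clusters of transcription factor binding sites that act on genes over a distance, and insulators are bound by CTCF and limit which enhancers reach which promoters. In the embryonic heart, enhancers are bound by GATA, T-box, MEF2, NKX2-5, HAND and TEAD factors. ATAC-seq reads out such sites because the transposase Tn5 inserts adapters preferentially where DNA is not packed into nucleosomes.

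The intervals below are the members with the highest score for 4 of the motifs whose shares differed between the lists, in mm10 coordinates (GRCm38) on the plus strand, 5′ to 3′. They are shown as examples of these motifs, which many members of either list do not carry. Capitals mark each copy of the motif on either strand. The first set holds gained members with the CCAAT-box motif of NFY or the GC-rich motif of the KLF and SP factors (GGGNGNGGC), and an NFY-bearing member downstream of *Gata5*.
NFY near Slc15a1, chr14:121447179-121447329: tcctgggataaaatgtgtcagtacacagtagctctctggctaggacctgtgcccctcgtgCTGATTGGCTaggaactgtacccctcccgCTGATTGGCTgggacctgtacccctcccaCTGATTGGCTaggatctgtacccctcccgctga
NFY near Klhdc7a, chr4:140004271-140004421: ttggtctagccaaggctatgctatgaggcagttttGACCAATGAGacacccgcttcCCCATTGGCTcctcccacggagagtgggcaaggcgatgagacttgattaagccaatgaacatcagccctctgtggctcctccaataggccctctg
NFY near Gata5, chr2:180320355-180320505: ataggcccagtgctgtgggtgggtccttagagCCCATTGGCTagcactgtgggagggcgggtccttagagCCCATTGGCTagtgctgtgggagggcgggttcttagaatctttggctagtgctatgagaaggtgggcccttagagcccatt
KLF near Prr5, chr15:84663098-84663248: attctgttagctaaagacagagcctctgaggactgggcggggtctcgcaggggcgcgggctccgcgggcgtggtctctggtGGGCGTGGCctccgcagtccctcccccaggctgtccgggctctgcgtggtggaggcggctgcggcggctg
KLF near Irgm2, chr11:58239316-58239466: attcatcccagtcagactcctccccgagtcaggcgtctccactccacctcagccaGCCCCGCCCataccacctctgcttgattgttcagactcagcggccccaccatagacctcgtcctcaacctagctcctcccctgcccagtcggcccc

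The interval near *Slc15a1* held 3 copies of the NFY motif in 1 orientation, inside a word that recurs along the interval. The interval near *Gata5* had the same layout with 2 copies. In contrast, lost members are represented by those with the CTCF and TEAD (ACATTCC) motifs and the highest scores, again with the motif in capitals.
CTCF near Cd7, chr11:121017822-121017972: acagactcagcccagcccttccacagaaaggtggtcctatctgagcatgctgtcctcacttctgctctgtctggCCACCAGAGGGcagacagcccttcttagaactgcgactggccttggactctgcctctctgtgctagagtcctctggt
CTCF near Gpr20, chr15:73680094-73680244: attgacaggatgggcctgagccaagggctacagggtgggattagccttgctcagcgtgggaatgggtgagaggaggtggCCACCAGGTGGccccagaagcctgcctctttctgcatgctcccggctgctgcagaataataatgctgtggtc
TEAD near Gm33543, chr10:95864849-95864999: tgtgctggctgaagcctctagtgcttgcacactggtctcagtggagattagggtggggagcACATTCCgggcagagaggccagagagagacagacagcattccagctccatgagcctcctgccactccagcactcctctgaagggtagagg
TEAD near Syk, chr13:52577455-52577605: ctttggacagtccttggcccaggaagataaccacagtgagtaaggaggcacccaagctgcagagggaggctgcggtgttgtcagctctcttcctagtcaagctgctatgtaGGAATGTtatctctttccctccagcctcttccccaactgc

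To ask whether this class of site leaned towards either genotype, the gained share was compared with that of other listed peaks. Gained peaks made up 82.1% of members (2936 of 3574, interval 80.9 to 83.4%). Over all listed peaks, 82.6% were gained and 17.4% lost, so members were split between the lists much as the whole series was. The difference from all listed peaks that were no members was -0.527 percentage points (-1.98 to 0.872). Intronic peaks at the same distances from a TSS were gained less often, at 76.3% (3371 of 4418), which is 5.85 points below members (4.06 to 7.61). Intergenic peaks beyond 50 kb were gained in 78.2% of cases, 3.99 points below members (0.916 to 7.30). Intergenic peaks at 3 to 50 kb with more than 50% repeat bases, which the rule left out, were gained in 87.6% of cases (516 of 589). Across the 19 autosomes the gained share of members ran from 73.8% to 90.8%, and gained members outnumbered lost members on each of them.

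The members with the highest scores are given with the deposited score, whose scale is not stated and is not comparable between the lists. Among gained members these included an interval 6372 bp upstream of *Prr5* (chr15:84663098-84663248, score 604.5), one 6092 bp upstream of *Pura* on chromosome 18 (score 493), and one 33851 bp downstream of the TSS of *Rbm38* (chr2:173056901-173057051, score 492). *Arhgap23* had a gained member 11080 bp upstream (chr11:97404303-97404453, score 411). *Prr5* encodes a subunit of the mTORC2 kinase complex. The highest lost scores stood 25693 bp downstream of the TSS of *Derl1* (chr15:57864551-57864701, score 364), 23415 bp downstream of that of *Tex35* (chr1:157084823-157084973, score 202.3) and 30905 bp upstream of *Klrb1* (chr6:128753964-128754114, score 154). The next in the lost list were 45004 bp upstream of *Gcm1* (chr9:78006770-78006920, score 132.4) and 21919 bp upstream of *Gm33543* (chr10:95864849-95864999, score 121.6). Member scores ran from 20 to 604.5 in the gained list with a median of 57, and from 15.6 to 364 in the lost list with a median of 35.6. Ranked within the whole of its own list, the median member stood at percentile 44.9 (gained) and 46.5 (lost), so members were not the strongest peaks of either list.

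Gained and lost members differed in base composition. GC content was 54.5% ± 6.38 (SD over 2936 intervals) in gained and 50.3% ± 5.52 (SD over 638 intervals) in lost members, a difference of 4.16 percentage points (3.67 to 4.65). Both lay above the 3470845 genome windows of the same width that meet the same rule on genes, TSS distance and repeats, which had 41.3% ± 7.94 (SD over windows). CpG dinucleotides, where mammalian DNA is methylated and which cluster in CpG islands, numbered 2.77 per gained and 2.11 per lost member on average, against 1.12 per window. Relative to the number that base composition predicts, the CpG ratio was 0.241 in gained and 0.219 in lost members, and this difference of 0.0215 (0.00602 to 0.0369) was not seen among members of 45 to 55% GC, where it was -0.0114 (-0.0298 to 0.00700).

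From 35% GC upward, the gained share of members rose with GC class. The 5 members below 35% GC were all gained. The share was 42.9% among the 28 members of 35 to 40% GC and 56.8% at 40 to 45% GC (113 gained, 86 lost). At 45 to 50% it was 73.2%, at 50 to 55% 83.2%, at 55 to 60% 88.3% and at 60 to 65% 93.9% (370 gained, 24 lost). GC content was higher in gained than in lost members on 19 of 19 autosomes. How the reads of each sample varied with GC content was not tested, since the lists hold no value per sample.

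**Figure D1:**
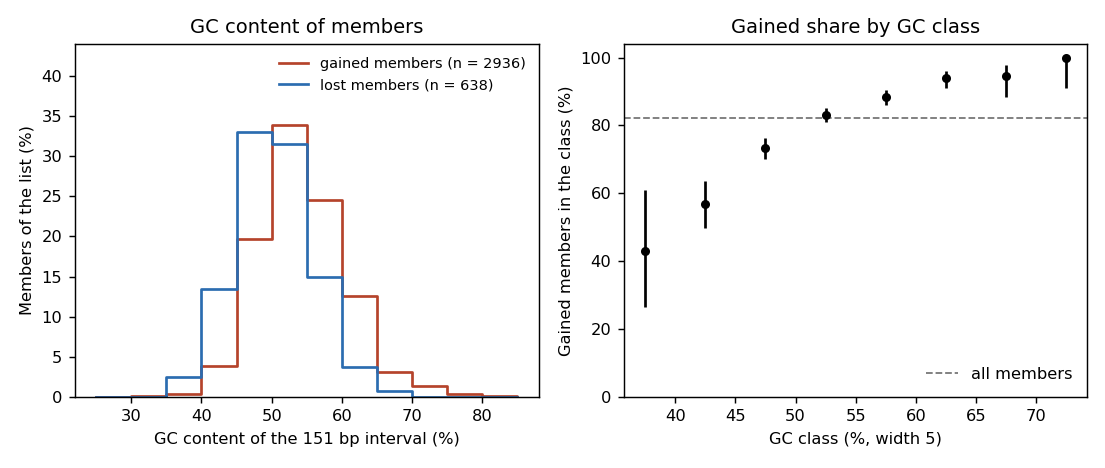
GC content of members. Left, share of each list (%, y axis) by GC class of 5 percentage points (x axis), gained members in red and lost members in blue. Right, share of members that were gained (%, y axis) in each GC class from 35% up, with Wilson 95% intervals as bars and the share of all members as a dashed line. The gained share climbs from 42.9% at 35 to 40% GC to 93.9% at 60 to 65% GC.

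To contrast the lists by sequence, 24 consensus motifs were searched on both strands of each interval, all of them of the same width, and a member counted once per motif. A difference between the lists was called only if its interval at the 99.79% level, which allows for 24 motifs, did not include 0. By this criterion 9 motifs differed, 5 with a higher share in gained and 4 with a higher share in lost members. A consensus string finds fewer sites than a weight matrix, and a match is a description of the sequence and not a bound site.

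KLF and SP factors bind GC boxes at many promoters and enhancers. The motif GGGNGNGGC was present in 585 gained members (19.9%, 18.5 to 21.4%) and 31 lost members (4.86%, 3.44 to 6.81%), against 1.77% of all eligible windows. The difference was 15.1 points (11.1 to 18.2 at the simultaneous level) and was positive on 19 of 19 autosomes. Because this motif is itself GC-rich, it was also compared within GC classes. At 55 to 60% GC it was present in 27.4% of gained and 4.21% of lost members, against 8.83% of windows. At 50 to 55% GC the shares were 12.9%, 7.46% and 4.62%, and at 45 to 50% they were 6.76%, 3.32% and 2.37% with an interval for the difference that included 0 (-0.368 to 6.34), as did that at 40 to 45% GC (-4.68 to 5.16). Of the 778 copies in gained members, 194 were soft-masked as repeat. The highest-scoring lost member with this motif, near *Tex35*, carried it beside a long run of G. Gained members with the KLF motif had a median score percentile of 54.4 within the gained list, and those without it 42.5.

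NFY is a trimeric factor that binds the CCAAT box, an element common in promoters of dividing cells. Its motif was present in 239 gained members (8.14%, 7.21 to 9.19%) and in 0 of 638 lost members, which allows a share of up to 0.599% in the lost list (upper Wilson limit). The share of windows was 0.527%, so the gained share was 15.5 times that of windows. The difference between the lists was 8.14 points (6.10 to 9.83 at the simultaneous level). Unlike the KLF motif, the NFY motif was most frequent in gained members of low GC. It was present in 18.6% of gained members at 40 to 45% GC, 12.8% at 45 to 50%, 9.33% at 50 to 55% and 5.70% at 55 to 60%, with 0 lost members in each class. All 19 autosomes had gained members with the motif. Gained members with the NFY motif ranked lower in their list than those without it, with median score percentiles of 36.9 and 44.9. The motifs of NFY and KLF stood in the same interval in 29 gained members. Of gained members with NFY, 12.1% had KLF, against 19.9% of all gained members. This comparison was not made within GC classes. The KLF share of gained members was 6.76% at 45 to 50% GC and 27.4% at 55 to 60% GC, whereas the NFY share fell over these classes.

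MEF2 and SRF are MADS-box factors that drive muscle genes. The MEF2 motif was present in 121 gained members (4.12%) and 8 lost members (1.25%), and the share of windows was 3.35%. The AT-rich MEF2 motif is common in AT-rich DNA, so the window share is dominated by sequence of lower GC than the members. At 45 to 50% GC the motif was present in 6.93% of gained and 1.42% of lost members against 0.816% of windows, and at 40 to 45% GC in 16.8% and 2.33% against 1.82%. In the classes with the most gained members the MEF2 difference was smaller and its interval included 0, with 3.81% and 1.49% at 50 to 55% GC (-0.665 to 4.01) and 2.09% and 0 at 55 to 60% GC (-1.89 to 3.41). The SRF motif, known as the CArG box, was present in 91 gained members (3.10%) and 2 lost members (0.313%), with 0.893% of windows. The differences were 2.87 points for MEF2 (0.422 to 4.39 at the simultaneous level) and 2.79 points for SRF (0.870 to 3.96). Within GC classes the SRF difference included 0 at 40 to 45% GC (-2.46 to 8.86) and at 55 to 60% GC (-1.36 to 4.09). The members with the highest scores for each motif follow, 1 near *Src*, a tyrosine kinase gene, and 1 near *Bcan*, which encodes a proteoglycan. The SRF example was chosen after its values were seen.
MEF2 near Src, chr2:157479952-157480102: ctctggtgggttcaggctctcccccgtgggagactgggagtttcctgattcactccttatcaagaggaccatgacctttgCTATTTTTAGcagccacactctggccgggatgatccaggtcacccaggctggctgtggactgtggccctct
SRF near Bcan, chr3:87982917-87983067: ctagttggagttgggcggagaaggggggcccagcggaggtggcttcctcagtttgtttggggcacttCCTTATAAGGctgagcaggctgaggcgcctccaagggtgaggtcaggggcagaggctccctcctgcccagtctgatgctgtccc

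The fifth motif with a higher share in gained members was TGACAG, bound by the homeodomain factors MEIS and TGIF, with 655 gained (22.3%) and 106 lost members (16.6%), which is 2.12 and 1.58 times the share of windows. Its difference of 5.69 points had a simultaneous interval of 0.186 to 10.4. Within GC classes the 95% interval for TGACAG excluded 0 only at 50 to 55% GC, where the shares were 27.8% and 15.4%, and included 0 at 40 to 45% (-7.44 to 13.6), 45 to 50% (-2.57 to 9.92) and 55 to 60% GC (-6.10 to 10.4). Counted together, NFY, KLF, MEF2 or SRF motifs were present in 33.1% of gained and 6.27% of lost members. These 4 motifs were grouped after their values were seen, so this is a description of the lists.

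In lost members the share of 4 other motifs was higher. TEAD factors, the DNA-binding partners of the Hippo pathway effector YAP, recognise ACATTCC, which was present in 154 gained members (5.25%), 60 lost members (9.40%) and 2.45% of windows. AP-1, the dimer of FOS and JUN proteins, binds TGANTCA, which was present in 181 gained members (6.16%), 71 lost members (11.1%) and 5.34% of windows. The SOX motif CCATTGT was present in 28 gained members (0.954%), 23 lost members (3.61%) and 2.48% of windows. The CTCF motif was present in 11 gained members (0.375%), 20 lost members (3.13%) and 0.0903% of windows. The differences were -4.16 points for TEAD (-8.48 to -0.854 at the simultaneous level), -4.96 points for AP-1 (-9.55 to -1.35), -2.65 points for SOX (-5.71 to -0.823) and -2.76 points for CTCF (-5.67 to -1.14). Each of the 4 motifs had the higher share in lost members in all 4 GC classes from 40 to 60%. For TEAD, however, the interval of the difference included 0 at 45 to 50% GC (-6.53 to 1.75) and at 50 to 55% GC (-8.25 to 0.482), the classes with the most lost members, and for AP-1 at 40 to 45% GC (-8.91 to 5.04) and at 55 to 60% GC (-8.48 to 3.00). For SOX it did so in both classes below 50% GC and for CTCF at 40 to 45% GC. The TEAD share was higher in lost members on 17 of 19 autosomes and the AP-1 share on 15. Both lists exceeded the windows for TEAD and for CTCF, whose gained share was 4.15 times that of windows, whereas the gained share of SOX lay below that of windows. The study also named CTCF among motifs enriched at loci with gained accessibility in *Chd4-CMko* hearts, taken at any position. Lost members with the CTCF or TEAD motif stood high in their list, with median score percentiles of 65.8 and 59.2, against 45.1 for lost members without the motif in each case. At least 1 of CTCF, TEAD, AP-1 or SOX was present in 12.2% of gained and 25.5% of lost members, again a grouping made after the values were seen.

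**Figure D2:**
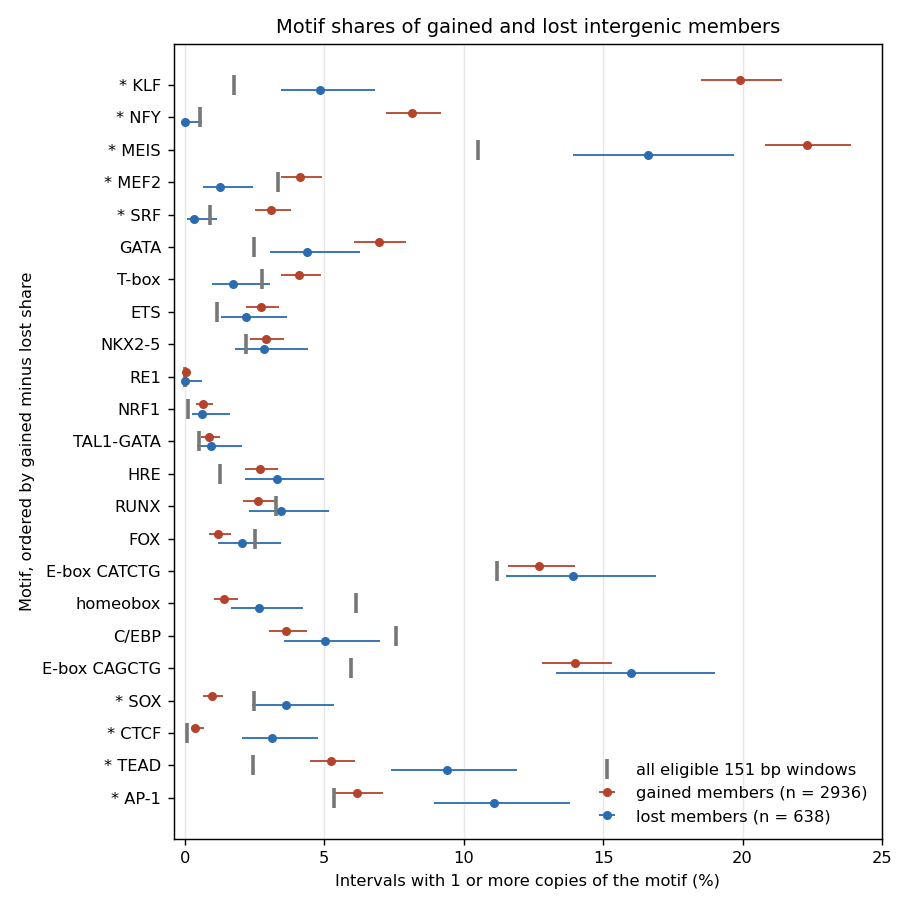
Share of intervals (%, x axis) with each motif (y axis, ordered by gained minus lost share) for gained members in red, lost members in blue and all eligible windows as grey ticks; bars are Wilson 95% intervals and asterisks mark the 9 motifs whose difference excluded 0 at the simultaneous level. KLF and NFY stand apart at the top (19.9% against 4.86%, and 8.14% against 0), and AP-1, TEAD, CTCF and SOX at the bottom. DR1, with 0 members in either list, is not drawn.

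The motif of the cardiac GATA factors, AGATAAG, was present in 204 gained (6.95%) and 28 lost members (4.39%), with 2.49% of windows. Its difference of 2.56 points excluded 0 at the 95% level (0.489 to 4.21) but not at the simultaneous level (-0.930 to 5.03), and it turned to -1.69 points (-5.92 to 2.44) when 1 mismatch was allowed. Among members of 45 to 55% GC the GATA difference was larger, at 4.57 points (1.91 to 6.66), and the share was higher in gained members in 4 of 4 GC classes, with intervals that included 0 at 40 to 45% GC (-0.968 to 17.6) and at 55 to 60% GC (-4.67 to 4.86). The T-box motif AGGTGTG was present in 4.09% of gained and 1.72% of lost members (2.77% of windows), and the homeobox core TAATTA in 1.40% and 2.66% (6.12% of windows). These 3 motifs were the ones with a 95% interval that excluded 0 and a simultaneous interval that did not. The NKX2-5 motif CACTTGA showed almost equal shares, 2.90% of gained and 2.82% of lost members (2.20% of windows), with a difference of 0.0738 points (-1.61 to 1.30).

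The other motifs had 95% intervals of the difference that included 0. The E-box CAGCTG was present in 412 gained and 102 lost members, which is 2.35 and 2.68 times the share of windows (5.97%), and the E-box CATCTG in 12.7% and 13.9% (11.2% of windows). For the ETS motif CAGGAAGT the shares were 2.72% and 2.19% (1.16% of windows), and for the RUNX motif TGTGGTT 2.62% and 3.45% (3.25% of windows). The hypoxia response element ACGTGC was present in 2.69% of gained and 3.29% of lost members (1.25% of windows). The forkhead motif TGTTTAC had 1.19% and 2.04% (2.52% of windows), and the C/EBP motif TTGCNNAA 3.64% and 5.02% (7.56% of windows). NRF1 (GCGCATGC) was present in 0.647% and 0.627% (0.117% of windows). The composite TAL1-GATA element, CTG and GATAA with 8 bases between them, was present in 0.851% and 0.940% (0.519% of windows). DR1 was found in 0 members of either list and 0.0230% of windows, and RE1 in 1 gained and 0 lost members and 0.00216% of windows. Motifs may share bases, as CAGCTG and TGACAG do where they overlap, and each is counted separately.

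The motif shares of members were compared with those of intronic peaks at the same distances and of intergenic peaks beyond 50 kb, list by list. Of 96 such comparisons, 0 excluded 0 at the level that allows for all 96, and 8 did at the 95% level. Among these, the NFY motif was present in 8.14% of gained members and 6.02% of gained intronic peaks, a difference of 2.12 points (0.852 to 3.41). KLF was present in 19.9% of gained members and 15.2% of gained intergenic peaks beyond 50 kb, a difference of 4.77 points (1.36 to 7.82). The contrasts between gained and lost members were thus not shown to be particular to this distance class.

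Some motifs had a preferred place within the interval. Copies placed evenly would have their centres within 25 bp of the interval's centre in 35.2% to 36.2% of cases, depending on the length of the motif (7 to 11 letters). Of the 20 CTCF copies in lost members, 18 lay within 25 bp of the centre (a share of 69.9 to 97.2% by the Wilson interval). In gained members 8 of 11 CTCF copies did so. MEF2 copies in gained members lay within 25 bp in 50.4% of cases (41.8 to 59.0%), NFY copies in 47.3% (41.8 to 53.0%) and KLF copies in 44.6% (41.1 to 48.1%). The intervals of these 3 motifs lay above even placement. The same held for SRF copies in gained members, at 47.3% (37.3 to 57.4%), and for NKX2-5 copies in lost members, with 13 of 19 (46.0 to 84.6%). TEAD copies in lost members lay within 25 bp in 46.0% of cases (34.3 to 58.2%) and AP-1 copies in lost members in 42.7% (32.1 to 53.9%), both with intervals that included even placement. Copies in the same member were counted separately, so these intervals treat them as independent.

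Where NFY copies occurred in pairs, most spacings fell into a shorter and a longer range. Of the 239 gained members with the motif, 43 had more than 1 copy, forming 61 neighbouring pairs. The starts of 25 pairs were 29 to 34 bp apart and those of 21 pairs 38 to 43 bp apart, while only 1 pair was 35 to 37 bp apart. The spacings ran from 21 to 100 bp with a median of 38 bp. Part of this layout came from tandem sequence. In 12 of the 43 intervals, the sequence matched itself at 60% or more of positions when shifted by 20 to 60 bp, as in the intervals near *Slc15a1* and *Gata5* printed above. Of the 37 pairs in the other 31 intervals, 12 were 29 to 34 bp apart, 15 were 38 to 43 bp apart and 1 was 35 to 37 bp apart. The 60% limit takes the whole interval at 1 shift, so a shorter local repeat can stay below it. These 31 intervals are therefore not shown to be free of tandem sequence. The pair analysis was added after the sequences were seen. Its ranges were drawn around the spacings of these same pairs, so the split into ranges is a description.

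Such tandem sequence was found in 83 gained members (2.83%, 2.29 to 3.49%) and 3 lost members (0.470%, 0.160 to 1.37%). Of the 83 gained intervals, 58 held no soft-masked base, so the limit on repeats does not remove them, and 15.7% carried the NFY motif. Counted over all members, tandem or not, 89 gained (3.03%) and 5 lost members (0.784%) shared a run of 25 bases with another member. How the authors' processing placed reads that fit more than 1 place is not given in the sources used here.

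**Figure D3:**
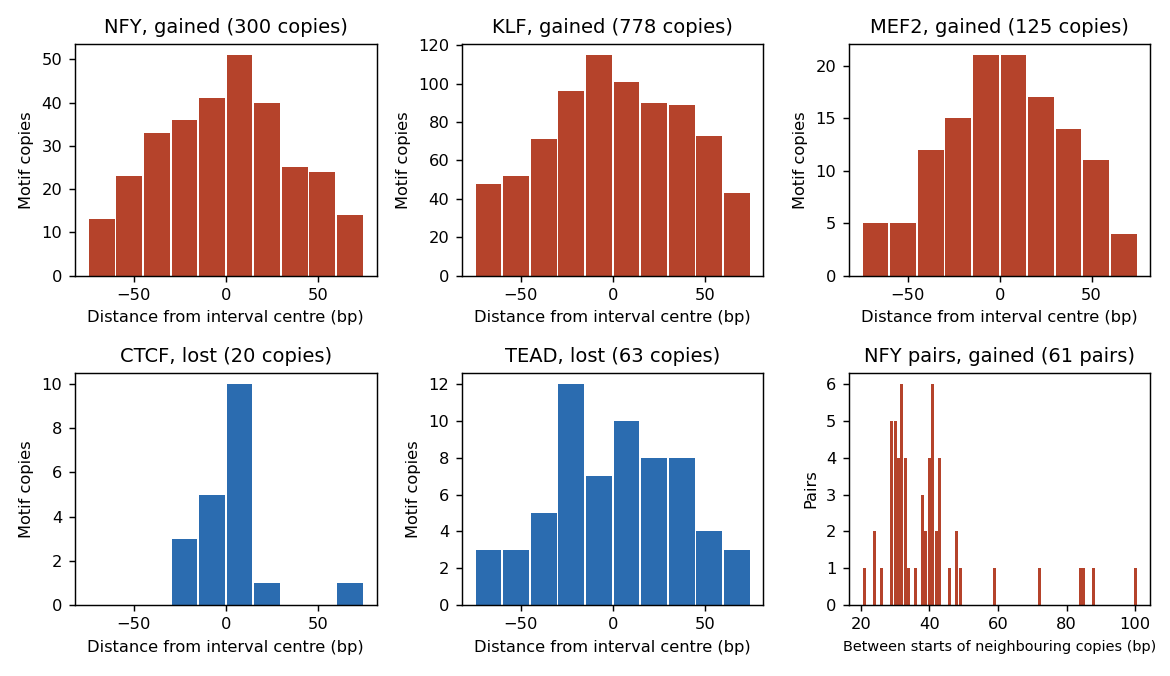
Place of motif copies within members. In the first 5 panels bars count copies (y axis) by the distance of their centre from the interval's centre (x axis, bp, in steps of 15 bp) for NFY, KLF and MEF2 in gained members (red) and CTCF and TEAD in lost members (blue). The last panel counts neighbouring NFY pairs in gained members by the distance between their starts (bp), with 25 pairs at 29 to 34 bp and 21 at 38 to 43 bp.

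The distance to the nearest annotated TSS of any biotype had a median of 14916 bp in gained and 15929 bp in lost members, which is a description only, since the rule limits this distance. Measured to protein-coding TSSs, which can lie beyond 50 kb, gained members were closer, with medians of 30832 and 37746 bp and a difference of -6914 bp (-12800 to -2014). In step with this, the nearest TSS of any kind belonged to a protein-coding gene for 41.0% of gained and 33.2% of lost members, and to a processed pseudogene for 16.9% and 23.7%. The orientation of the flanking protein-coding genes differed little. Gained members stood between genes in tandem in 52.3% of cases, between divergent genes in 27.5% and between convergent genes in 20.1%, against 54.9%, 27.7% and 17.1% of lost members, each with an interval of the difference that included 0. Upstream positions relative to the nearest protein-coding TSS made up 61.1% of gained and 60.8% of lost members.

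At the limits of the rule, the gained member closest to a TSS lay 3002 bp from that of the lincRNA *4930500L23Rik* (score 42), and the gained peak just outside lay 2985 bp from that of *Gm13580* (score 42). At the far limit the values were 49989 bp from *Gm42488* (score 316) inside and 50006 bp from *Gm22183* (score 33) outside. In the lost list the nearest member was 3002 bp from *1700029M20Rik* (score 35) and the peak just outside 2927 bp from *1110019B22Rik* (score 37.5), while the farthest was 49493 bp from *Gm44319* (score 35.7) and the peak just outside 50729 bp from *Gm40331* (score 30.0). At the repeat limit, the gained member with the most masked bases had 49.7% and the peak just outside 50.3%, with 47.0% and 53.6% in the lost list.

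To ask whether distal and promoter changes met at the same genes, the nearest protein-coding gene of each member was checked for a listed peak within 3 kb of one of its TSSs. Over all 21938 protein-coding genes, 12.4% had a gained and 1.24% a lost peak there. The nearest gene had a gained promoter peak for 19.4% of gained members (569 of 2936, 18 to 20.8%) and 10.7% of lost members (68 of 638, 8.49 to 13.3%), a difference of 8.72 points (5.74 to 11.3). It had a lost promoter peak for 1.63% of gained and 3.61% of lost members, a difference of -1.97 points (-3.76 to -0.668). Gained members were also more often near other gained peaks. The centre of another gained peak lay within 10 kb of 21.6% of gained and 12.2% of lost members, and that of another lost peak within 10 kb of 2.35% and 3.61%, the latter with an interval of the difference that included 0 (-3.07 to 0.0848).

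Gained members had 2105 protein-coding genes as nearest gene, or 9.60% of all, and lost members 591 genes, or 2.69%. Of these genes, 190 were nearest to members of both lists, which is 9.03% of the gained and 32.1% of the lost set. Most genes had a single gained member (1546), and 25 had 5 or more.

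*Serp2*, which encodes a protein of the endoplasmic reticulum translocon, had the most, with 11 gained and 0 lost members, all upstream and between *Serp2* and *Lacc1* (chr14:76576077-76789666). They stood 19188 to 232627 bp from its TSS with scores from 34.5 to 181. Of these 11 intervals, 4 carried the GATA motif, and over their whole span 14 gained and 0 lost peaks were listed. *Serp2* also had a gained promoter peak.

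*Rbm19*, a gene for ribosome biogenesis, followed with 8 gained and 0 lost members. Of these, 6 lay between it and *Tbx5*, the T-box gene required for chamber formation, and 2 between it and *Lhx5*. *Tbx5* itself was nearest to 3 gained members and its neighbour *Tbx3*, a T-box gene of the conduction system, to 3 more. *Tbx3* was added after its values were seen. From the first of these members to the last (chr5:119247009-120263966) the span was 1017 kb, and it held 27 gained and 0 lost listed peaks, 14 of them members with scores from 29.5 to 144.5. The member 128751 bp downstream of the TSS of *Tbx5* (score 117) held the motif of GATA factors and, besides, those of AP-1 and MEIS and the E-box CAGCTG, all shown in capitals below, with adjoining motifs run together.
Tbx5 member, chr5:119964906-119965056: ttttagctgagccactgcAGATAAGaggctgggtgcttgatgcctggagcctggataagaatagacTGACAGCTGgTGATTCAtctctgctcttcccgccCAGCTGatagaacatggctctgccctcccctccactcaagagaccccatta

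*Epha2*, an ephrin receptor gene, had 7 gained and 0 lost members within 66.9 kb (chr4:141274798-141341659), although only 25.1 kb of windows nearest to it met the rule, the least of any gene with 6 or more gained members. Its members scored from 81.0 to 189.5, and 4 of the 7 carried the KLF motif. *Phlda1*, *Tshz3* and *Hs6st1* also had 7 gained members each. A further 7 genes had 6 each, among them *Msx2*, a homeobox target of BMP signalling, *Vegfa*, and *Mycn* and *Bcor*, which also had lost members.

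*Vegfa* encodes the growth factor that drives the formation of blood vessels and of the endocardial cushions. Its 6 gained members all lay downstream of its TSS, between the gene and *1600014C23Rik* (chr17:45903404-46009416). They stood 11956, 42091, 70617, 72717, 76134 and 117818 bp from the TSS, with scores of 137, 52, 76, 135.5, 66.5 and 98. The span held 0 lost peaks. The scores did not fall in order of distance, and 3 of the 6 members stood close together between 70617 and 76134 bp. Their motifs were CAGCTG in 2, C/EBP in 2 and KLF, TEAD, MEIS and CATCTG in 1 each, with 0 copies of the hypoxia response element, NFY or MEF2 strings. *Vegfa* had neither a gained nor a lost promoter peak by the 3 kb limit.

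Among lost members, *Kif2a*, *Tnp1*, *Mki67* and *Chd7* were each nearest to 3, the highest number. *Mki67* encodes the proliferation marker Ki-67, and its lost members stood 5349, 147516 and 161110 bp upstream of the TSS (scores 40.5, 43.2 and 25.1), with 0 gained members. *Chd7*, a remodeller related to *Chd4* that is needed for heart and neural crest development, had lost members 62023, 131311 and 133240 bp downstream of its TSS (scores 66.8, 45 and 37). Between the first and the second of these lay its 1 gained member at 110469 bp (score 130.5), with NFY and KLF motifs, and the gene also had a gained promoter peak. Genes with members in both lists were led by *Mycn* (6 gained, 2 lost), *Jade1* (5 and 2), *Tnp1* (4 and 3), *Cpeb2* (5 and 2) and *Bcor* (6 and 1).

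**Figure D4:**
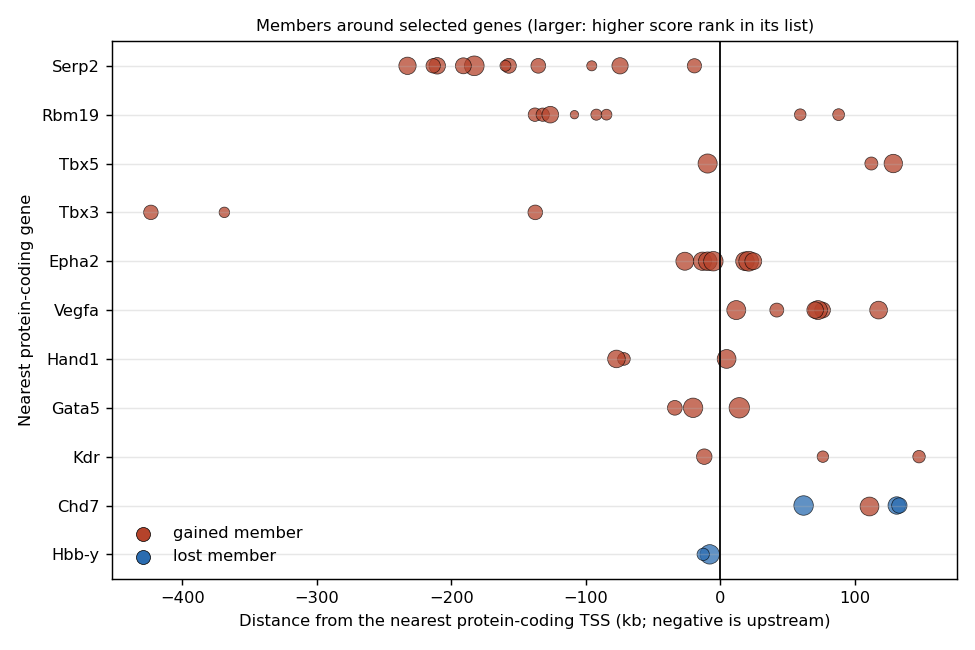
Members by signed distance from the TSS of their nearest protein-coding gene (x axis, kb, negative upstream) for 11 genes (y axis) chosen after their values were seen; each point is 1 member, red if gained and blue if lost, and larger points rank higher by score within their list. *Serp2*, *Rbm19*, *Tbx5*, *Tbx3*, *Epha2* and *Vegfa* have gained members and 0 lost members, and *Hbb-y* has 2 lost members.

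To describe the flanking genes by function, 15 gene lists were used, and a list gene was counted if it was the nearest protein-coding gene of a member. The counts read against 9.60% of all protein-coding genes for gained and 2.69% for lost members. They depend on how much intergenic sequence surrounds a gene, since developmental regulators lie in large gaps. The median protein-coding gene had 5.74 kb of eligible windows nearest to it. Members per Mb of eligible sequence are therefore given beside the counts, and over all genes these were 5.60 gained and 1.22 lost members per Mb. Several lists rest on few members, and the rate without the gene that has the most gained members is given where it differs by more than 1.5 times or turns the comparison with all genes, likewise for lost members of lists with 3 or more.

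Cardiac transcription factors had gained members at 14 of 28 genes and lost members at 2. Their median gene had 68.4 kb of eligible sequence, and the list had 8.91 gained and 0.713 lost members per Mb. *Gata5*, an endocardial and myocardial GATA factor, had 3 gained members with scores of 282, 160.5 and 58 at 14194 bp downstream and 20178 and 33763 bp upstream of its TSS. *Mef2d* had 1 at 8719 bp upstream (score 153.5) and *Tbx5* 1 at 9370 bp upstream (score 144.5). *Hand1*, a factor of the left ventricle and outer curvature, had a gained member with a MEF2 motif 4755 bp downstream of its TSS (chr11:57827242-57827392, score 129.5) and 2 more at 71621 and 77189 bp upstream (scores 45 and 95). The genes with lost members were *Tbx20* (score 41) and *Foxp1* (score 26.4), which also had gained members. A gained promoter peak was present at 3 of the 28 genes, near the 12.4% of all genes.

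The BMP and TGF-beta list, signals that pattern the heart tube and its cushions, had gained members at 11 of 26 genes (42.3%) and lost members at 4, or 11.3 gained and 2.67 lost members per Mb. *Smad2*, a TGF-beta effector, had a gained member with a score of 198.5 at 40829 bp upstream. The ligand gene *Tgfb2* had 2 gained members 81700 and 72402 bp downstream of its TSS (scores 170.5 and 121.5). *Id1*, a direct BMP target, had 1 gained member 12016 bp upstream (score 163), and *Smad7*, an inhibitor of both pathways, had 2 with scores of 156 and 125. The 4 genes with lost members, *Bmp2* (score 32.8), *Id2* (score 50.9), *Smad3* (score 69.8) and *Tgfbr2* (score 26), each also had 1 gained member. The lost member of *Smad3* stood at percentile 88.8 of the lost list. Smooth muscle genes, several of which are also expressed in embryonic cardiomyocytes, had gained members at 5 of 14 genes (35.7%) and 0 lost members. In only 0.199 Mb of eligible sequence this came to 35.3 gained members per Mb, the highest of the 15 lists. *Des*, the gene for the muscle filament desmin, had gained members 10757 and 15749 bp upstream (scores 259 and 205.5), and *Smtn* 7447 and 46885 bp upstream (scores 147 and 43). *Tpm1* had 1 at 20558 bp upstream (score 90.5, with an NFY motif) and *Acta2* 1 at 14899 bp upstream (score 68).

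Endothelial genes had gained members at 6 of 24 and a lost member at 1, with 9.47 and 1.05 members per Mb. *Etv2*, the factor that specifies the endothelial lineage, had 1 gained member 3371 bp upstream (score 143.5), and *Fli1* 1 at 30904 bp upstream (score 64.5). *Klf4* had 2 gained members upstream (scores 42.5 and 65), while *Npr3*, an endocardial marker, had 1 lost member (score 77.1) and 1 gained member (score 25.5). The list of angiogenesis and Notch genes had gained members at 6 of 24 genes and 0 lost members, with 7.61 gained members per Mb. Of its 13 gained members 6 belonged to *Vegfa*, and without that gene the rate was 4.42 per Mb, below the 5.60 of all genes. Besides *Vegfa*, the Notch ligand gene *Jag2* had a gained member with an NFY motif 12216 bp downstream of its TSS (chr12:112898002-112898152, score 305.5), *Hes1* had 2 (scores 105 and 32.5) and *Jag1* had 2 (scores 63 and 47.5).

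Hypoxia response genes had gained members at 6 of 26 (23.1%) and lost members at 2, or 7.46 and 1.86 per Mb. *Ddit4*, an inhibitor of mTORC1, had gained members 12748 bp upstream (chr10:59964582-59964732, score 180) and 20576 bp downstream of its TSS (score 119). The first held 1 hypoxia response element. *Mxi1* had 2 gained members (scores 88 and 54) and *Ndrg1* 1 (score 82). Lost members lay near *Egln3* (score 35), which also had 1 gained member, and *Plod2* (score 17.8). Glycolysis genes had gained members at 2 of 24 (8.33%), near the background, and 0 lost members, which came to 3 gained members in 0.429 Mb of eligible sequence, or 2.56 per Mb without *Slc2a1*. *Slc2a1*, the gene for the glucose transporter GLUT1, had 2 gained members, of which the one 35568 bp upstream (score 186.5) held a hypoxia response element, and *Pfkp* had 1 (score 113). Genes named in the study's text had gained members at 4 of 12 (33.3%) and 0 lost members, with 12.9 gained members per Mb, or 6.15 without *Vegfa*. This list was taken from genes that the study names among its results, in part on these samples and in part on other hearts, so its direction is not independent evidence. Besides *Vegfa*, *Lef1*, a factor of the Wnt pathway, had 2 gained members 4278 and 26462 bp upstream (scores 200 and 109), *Rora* had 1 (score 26.5) and *Fgf9* 1 (score 25). The study names *Lef1* among genes with lower expression in *Smyd1* null hearts, so the list mixes genes named as raised and as lowered.

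Cardiomyocyte genes had gained members at 5 of 32 (15.6%) and lost members at 2, with 5.03 and 1.44 members per Mb, close to all genes. *Nppb*, which encodes the natriuretic peptide BNP, had 1 gained member 21813 bp upstream with TEAD and NFY motifs (chr4:147963825-147963975, score 162). *Kcnj2* had gained members 777608, 46178 and 690057 bp downstream of its TSS (scores 157.5, 35 and 25), of which the first and the last lie far out in the gap towards *Sox9*, and 1 lost member 11858 bp upstream (score 24.7). Without *Kcnj2* the list had 3.80 gained members per Mb. *Ryr2* had 1 lost member 151550 bp downstream of its TSS (score 59.7). Fast skeletal muscle genes, which had only 0.198 Mb of eligible sequence, had gained members at 1 of 22 (4.55%), which came to 10.1 members per Mb and 0 without that gene. These were the 2 members of *Myh3* at 5509 and 9655 bp upstream (scores 45 and 34), and the list had 0 lost members. A gained promoter peak was present at 14 of these 22 genes, against 12.4% of all genes.

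In the list of NuRD subunits and CHD remodellers, 3 of 16 genes had gained and 2 had lost members, each at 8.72 members per Mb, or 4.51 gained members per Mb without *Adnp* and 3.04 lost members per Mb without *Chd7*. *Chd4*, the targeted gene, was nearest to 1 gained member 5961 bp upstream of its TSS (chr6:125089870-125090020, score 405.5) with a TEAD motif. This interval lies outside the gene and says nothing of the recombined allele. *Adnp*, a partner of CHD4 in the ChAHP complex, had 2 gained members (scores 173 and 131), *Chd7* is described above and *Mbd2* had 1 lost member (score 20.3).

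Epicardial and mesenchymal genes were the list with as many genes nearest to lost as to gained members, 5 of 18 each (27.8%), and 5.37 members per Mb in each direction. With both flanking genes counted in place of the nearest, the list had 6 genes with lost and 5 with gained members. Genes with gained members alone were *Krt18* (scores 207 and 141.5) and *Krt8* (score 57), which encode epithelial keratins, the collagen gene *Col1a1* (score 69) and the growth factor receptor gene *Pdgfra* (score 43). Genes with lost members alone were *Tbx18* (scores 33.1 and 34.6) and *Tcf21* (score 48.5), which encode transcription factors of the epicardium, the collagen gene *Col3a1* (score 27.1) and *Postn* (score 23.8), which encodes the matrix protein periostin. *Aldh1a2*, which encodes the enzyme that makes retinoic acid in epicardium, had members in both lists, 1 lost member 106188 bp (score 67) and 1 gained member 87914 bp downstream of its TSS (score 36). Erythroid genes were more often nearest to lost than to gained members, 2 against 1 of 20, with 18.1 lost and 6.02 gained members per Mb over 0.166 Mb of eligible sequence. The gained rate came from 1 member, and the lost rate was 6.35 per Mb without *Hbb-y*. *Hbb-y*, the embryonic beta-globin gene, had lost members 7809 and 12656 bp upstream (scores 64.6 and 28.4), in the stretch upstream of the gene where the beta-globin locus control region lies. *Tfrc*, the transferrin receptor gene, had 1 gained member (score 114.5). The *Hbb-y* member with the higher score is shown with its motifs in capitals, a CAGCTG and a CATCTG E-box and 2 neighbouring AP-1 motifs.
Hbb-y member, chr7:103861025-103861175: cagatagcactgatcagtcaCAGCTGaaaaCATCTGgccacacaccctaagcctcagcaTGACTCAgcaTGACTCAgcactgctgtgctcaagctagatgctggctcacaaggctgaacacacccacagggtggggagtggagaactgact

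A lost promoter peak was present at 4 of the 20 erythroid genes, *Hbb-y* among them, against 1.24% of all genes, and a gained promoter peak at 2. Embryonic hearts contain primitive red cells, and the part of their number in these losses was not tested. Macrophage genes had gained members at 1 of 12 (8.33%), *C1qb* with 2 (scores 103 and 63), and neuronal genes at 2 of 18 (11.1%), *Slc32a1* with 3 (scores 145.5, 64.5 and 51.0) and *Rbfox3* with 1 (score 36.5), both near the 9.60% of all genes, with 5.78 and 5.53 gained members per Mb (0 without *C1qb* and 1.41 without *Slc32a1*) and 0 lost members for either gene list.

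**Figure D5:**
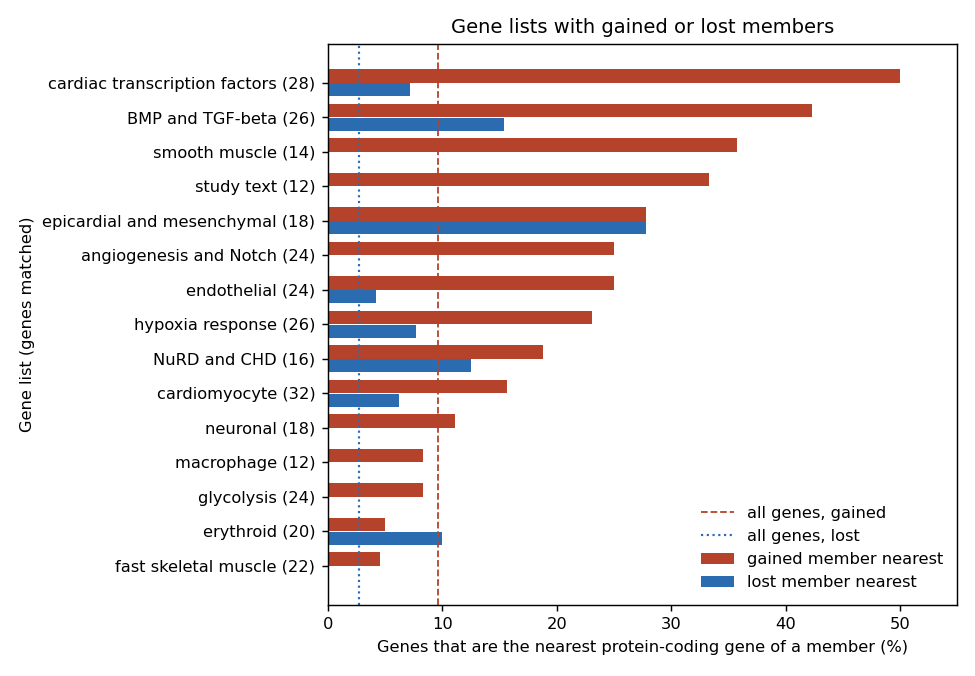
Share of list genes (%, x axis) that were the nearest protein-coding gene of a gained member (red bars) or a lost member (blue bars) for 15 lists (y axis, number of genes matched in parentheses), with the shares of all protein-coding genes as dashed (9.60%, gained) and dotted (2.69%, lost) lines. Cardiac transcription factors have the longest bar for gained members (14 of 28 genes), and the epicardial and mesenchymal list has 27.8% in both directions. The bars are not corrected for the amount of intergenic sequence around the genes.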

How the data were processed

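The deposited data were 2 lists of differential ATAC-seq peaks in mm10 coordinates, 1 for *Chd4-CMko* and 1 for WT hearts, each with the peak's position and a score. Per the labels and the study's methods, the authors aligned reads with BWA-MEM, called peaks with HOMER 4.10.3, kept peaks with a 2-fold change and annotated them with ChIPseeker 1.20.0. The deposited score is a peak score that the authors' peak caller set, on a scale that is not given in the sources used here, so score percentiles were taken within a list. The choice of named genes per gene list went by the score as deposited, across both lists, and so favours gained members, whose scores are higher. How the 4 samples of a genotype were combined, how duplicates were handled and whether reads were shifted for the Tn5 insertion are not given in the sources used here. The list of *Chd4-CMko* was read as gained and that of WT as lost. There were 0 columns of unassigned samples.

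Peaks were placed against 141730 transcripts of GENCODE M21 and the soft-masked GRCm38 genome, with the distance taken from the nearest edge of the interval to the TSS. Each of 24 consensus motifs was searched on both strands without mismatch. Differences were given with Newcombe intervals, at 95% and at 99.79% for 24 motifs. Eligible windows were tiled over the genome by the same rule. The scripts were tested on simulated data and ran in Python 3.11.15 with numpy 2.4.6, pandas 2.3.3, scipy 1.17.1 and matplotlib 3.10.9. Of 317 entries in the gene lists, 316 matched a gene.

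The members, motifs and gene lists were chosen with earlier results of these data known. Named were, by rule, the 5 members with the highest score in each list, the genes nearest to the most members, the genes with members in both lists, up to 4 genes per gene list by highest score, the members with the highest score for 6 motifs (CTCF, MEF2, NFY, KLF, TEAD and GATA), and the members next to the limits. *Tbx3*, *Tbx5* members other than the highest, *Msx2*, *Mbd2*, *Rbfox3*, *Pdgfra*, other list genes with lost members, the SRF example and the genes of the plot of loci were chosen after their values were seen, as were the analyses of motif pairs, tandem sequence and motif groups. No sequence from chromosome 18, which holds 149 members, was printed. A few members that the rule names are not reported here.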

Additional observations from a re-analysis of the deposited data

How the results depend on the processing

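The 11 main results were recomputed under alternatives to the rule (repeat, distance, annotation and overlap limits, score, 1 member per gene, GC range) and to the motif search (wider interval, 1 mismatch); of 110 recomputed values, 96 kept their direction and side of the threshold (for the gained share, a value within the interval of the main one), though not always their size. The share of gained members, 82.1%, was 80.8% with at most 25% repeat bases, 84.3% with protein-coding genes only, 78.1% with 1 member per gene and list, and 79.3% at 45 to 55% GC. The difference in median TSS distance, a measure that the rule itself limits and which is given as a description, was -1012 bp, -1534 bp without a repeat limit, -2363 bp with 1 member per gene and 290 bp within 20 kb of a TSS. That of the CpG ratio, 0.0215, was 0.0123 without a repeat limit, where its interval included 0, and -0.0114 at 45 to 55% GC. The GATA difference of 2.56 points lost the 95% threshold within 20 kb (1.68), with protein-coding genes only (1.24) and in the upper part of the score range (2.62), turned to -1.69 with 1 mismatch, and rose to 4.57 at 45 to 55% GC and 4.56 in widened intervals. The KLF difference of 15.1 points was 5.33 at 45 to 55% GC and 29.2 with 1 mismatch, which also moved NFY from 8.14 to 16.5, CTCF from -2.76 to -7.57 and TEAD from -4.16 to -9.35. The TEAD difference was -2.46 points at 45 to 55% GC, with an interval that included 0. The cause of these shifts was not tested. With both flanking genes in place of the nearest, 16 of 30 gene list counts moved by over 1.5 times, for example from 14 to 22 genes with gained members for cardiac transcription factors, while the count over all protein-coding genes rose from 2105 to 3521. No paired analysis was possible because the lists hold no value per sample, and for the same reason leaving out a replicate was not run. Depth limits these results in a way that cannot be measured here, since the lists give neither reads per sample nor the peaks that passed no threshold.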
